A study of Homo sapiens with 30 samples.

Results

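EGR1, EGR3, NR4A1, NR4A2 and NR4A3 are genes of transcription factors that cells switch on within minutes of a stimulus. Their RNA was followed under exposure to 2 kinds of nanoparticle in SAE cells, human epithelial cells of the small airways that lead to the alveoli. All probe sets whose platform symbol is exactly one of these names were taken, 5 of the 11963 genes measured, which gave 12 of the 22215 probe sets that are not array controls. EGR1 has 2 of them, EGR3 has 1, and NR4A1, NR4A2 and NR4A3 have 3 each. EGR2 has no probe set with its symbol in the table.

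The exposed cultures received multi-walled carbon nanotubes (MWCNT, nested cylinders of carbon) or titanium dioxide nanobelts (TiO2-NB, thin ribbons of the oxide) at 10 or 100 ug/ml for 1 or 24 h. The control cultures received 0 ug/ml for the same times. Each of the 10 groups had 3 arrays, 30 in all, labelled as biological replicates. The cells came from a commercial supplier, and the labels say neither how many donors they stand for nor whether replicates are separate donors, so the p values measure only the spread between these samples. All groups, controls included, were detached with trypsin, spun down, resuspended and plated in flasks, and the particles went straight into the medium. The interval between plating and exposure, and any vehicle of the particles, are not given in the sources used here.

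EGR proteins are zinc finger factors that bind GC-rich sites, and in most cells their genes are induced through ERK kinases, serum response factor (SRF) with its ternary complex partners, and CREB. NR4A proteins are orphan nuclear receptors that bind DNA alone, as pairs or with the retinoid X receptor, and act without a known physiological ligand, so their activity is thought to follow their amount. Both families belong to the immediate early genes, whose RNA is short-lived and whose induction needs no new protein. In airway epithelium such genes answer growth factors, wounding, stretch and inhaled irritants.

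The stretches before the annotated starts of EGR1 and NR4A3 are shown because these genes behaved differently at 1 h: EGR1 was near the top of the array in every group, while NR4A3 differed between the groups. Both are 250 bases of the human assembly GRCh38.p14 from RefSeq, ending at the base before the start. Capitals mark matches, on either strand, to the CArG box (the core of the serum response element that SRF binds), the half-site TGACG of the cAMP response element (CRE) that CREB binds, or the EGR site GCGNGGGCG.
EGR1 chr5:138465229-138465478, plus strand: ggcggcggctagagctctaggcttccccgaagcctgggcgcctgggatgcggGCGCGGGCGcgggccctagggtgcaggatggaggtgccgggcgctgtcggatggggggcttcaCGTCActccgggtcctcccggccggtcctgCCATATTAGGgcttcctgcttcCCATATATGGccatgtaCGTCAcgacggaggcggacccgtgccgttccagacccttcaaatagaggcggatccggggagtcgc
NR4A3 chr9:99821635-99821884, plus strand: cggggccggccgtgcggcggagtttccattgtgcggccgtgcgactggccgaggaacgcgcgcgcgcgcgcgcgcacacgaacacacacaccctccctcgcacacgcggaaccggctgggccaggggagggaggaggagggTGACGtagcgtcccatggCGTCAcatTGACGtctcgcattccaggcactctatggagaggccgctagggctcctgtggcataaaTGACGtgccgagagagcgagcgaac

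The EGR1 stretch holds 2 CArG boxes, at -105 to -96 and -83 to -74 from the start, 2 CRE half-sites and 1 EGR site. The NR4A3 stretch holds 4 CRE half-sites and neither a CArG box nor an EGR site. Both stretches lack the full CRE TGACGTCA and AAAGGTCA, the element bound by a single NR4A protein. The full CRE contains the half-site. Among 35116 promoters of the same length, a CArG box is found in 1.16%, the CRE half-site in 21.2%, the EGR site in 8.41%, the full CRE in 1.65% and AAAGGTCA in 1.05%. For NR4A1, on chromosome 12, the stretches before 2 annotated starts held none of these motifs. They end at 52022831 and 52037714, in a gene that runs to 52059503. Any start further along was not examined, so a lack of these motifs at the promoter in use is not shown. The stretches of NR4A2 and of EGR3, the strongest responder at 1 h by size, are not used here. A match is a description of letters and not evidence of binding. The part of these motifs in the differences between the genes was not tested. The map of motif positions gives the distances.

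**Figure D1:**
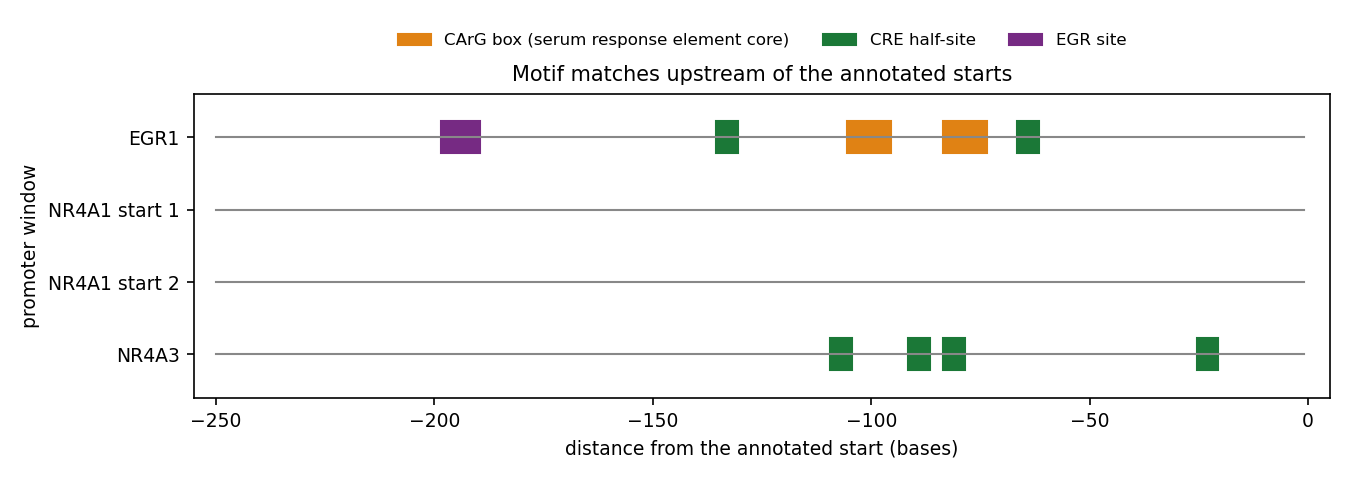
Matches to the motifs within 250 bases before the annotated start of EGR1, 2 annotated starts of NR4A1 and the start of NR4A3, drawn as coloured marks along the distance from the start in bases. EGR1 has 2 CArG boxes, 2 CRE half-sites and 1 EGR site, NR4A3 has 4 CRE half-sites, and both NR4A1 stretches are empty.

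Values are log2 expression per probe set after robust multi-array average (RMA) processing, so a difference of 1 is a doubling, and signals are not comparable between probe sets. The 30 arrays had medians of 7.15 to 7.21, and no 2 arrays held identical values. Against the median of all non-control probe sets, 7.18, the epithelial markers KRT18, KRT8, CDH1 and KRT5 lay above it and EPCAM, KRT19 and KRT14 below (4 of 7 above). Of the airway secretory and alveolar markers 1 of 3 lay above the median. SFTPC lay at percentile 57 of the table, SFTPB at 48.9 and the club cell marker SCGB1A1 at 13.1. The leukocyte marker PTPRC lay at percentile 6.06. Of the endothelial markers 0 of 4 lay above the median, of the fibroblast markers 2 of 5 (COL1A1 and PDGFRB), and of the immune markers 1 of 3 (CD14). In whole cultures, fewer responding cells and less RNA per cell cannot be told apart. Tests were made with limma on all 22215 probe sets, with Benjamini-Hochberg adjustment within each comparison and a threshold of 0.05. Rose and fell are used only for probe sets that passed it, and errors of differences are standard errors (SE).

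At 1 h, EGR1 RNA passed the test in no exposed group and was already high in the controls, and NR4A2 passed in no comparison with control. EGR3 RNA was graded by dose under both particles. NR4A1 was graded by dose on its brightest probe set, though MWCNT at 10 ug/ml did not pass. NR4A3 was higher than control at 100 ug/ml, on its brightest set with both particles and on a second set with MWCNT. At 24 h none of the 12 probe sets passed the test against the 24 h control. In unexposed cells 10 of the 12 were lower at 24 h than at 1 h. The plot of values by dose shows these patterns array by array.

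**Figure D2:**
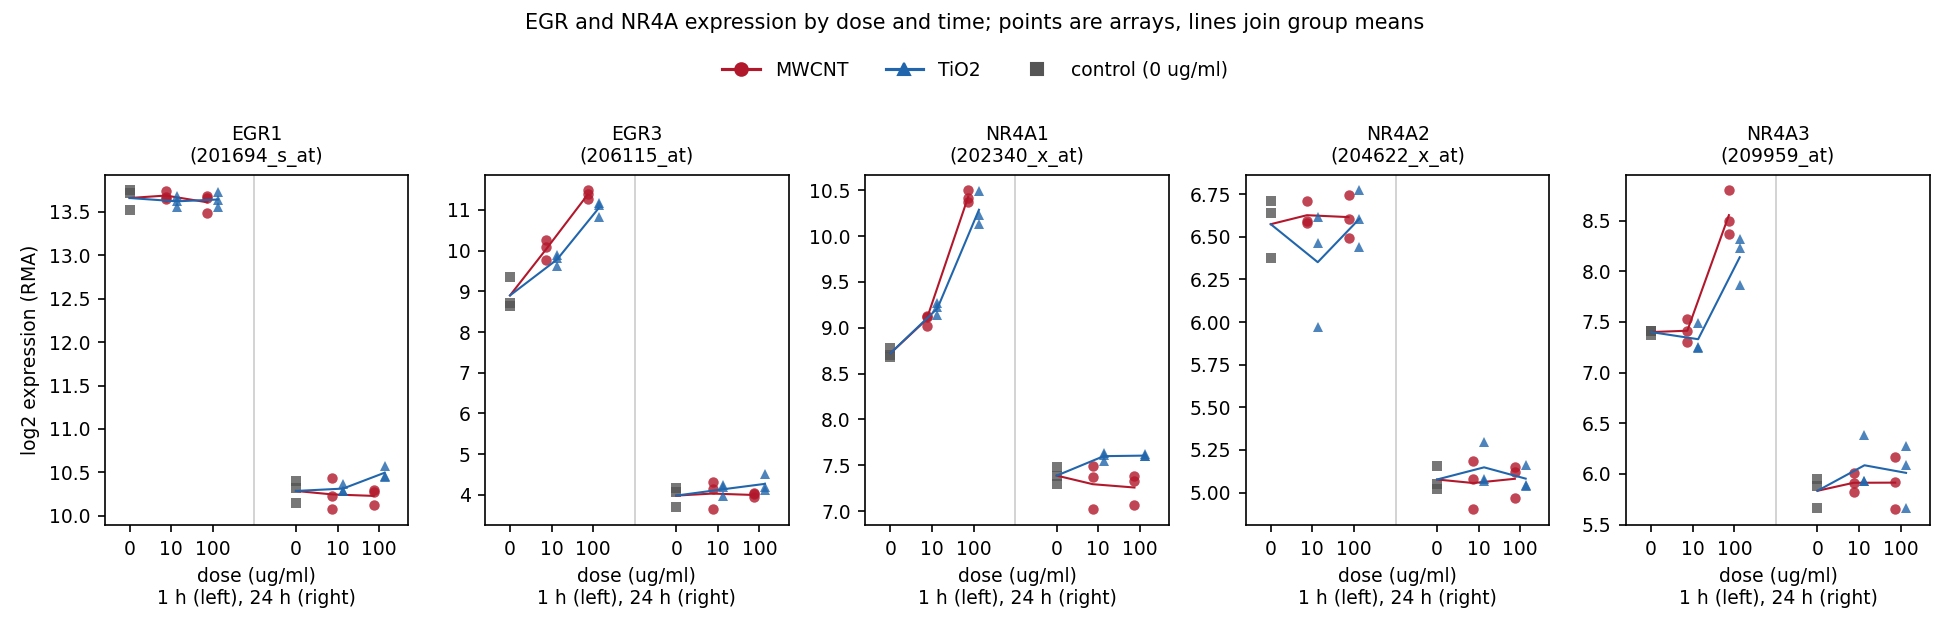
Log2 expression in each array (points) and group means joined by lines against dose in ug/ml, for the brightest probe set of each gene, with 1 h on the left and 24 h on the right of each panel, a colour per particle and a separate vertical axis per gene. At 1 h EGR3 averages 11.38 at MWCNT 100 ug/ml against 8.90 in the controls, EGR1 stays between 13.48 and 13.75, and at 24 h EGR3 lies between 3.64 and 4.51.

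EGR3, an EGR factor known for roles in muscle spindles, neurons and lymphocytes, has 1 probe set, 206115_at. Its values in the 1 h controls were 9.35, 8.72 and 8.63. With MWCNT they were 9.76, 10.25 and 10.09 at 10 ug/ml and 11.48, 11.26 and 11.40 at 100 ug/ml. With TiO2-NB they were 9.82, 9.89 and 9.63 at 10 ug/ml and 11.18, 10.83 and 11.11 at 100 ug/ml. No exposed array overlapped the controls, and both doses were separate from each other with either particle. Against the controls, EGR3 rose by 1.14 ± 0.17 with MWCNT at 10 ug/ml (adjusted p = 0.00433), a 2.20-fold change, and by 2.48 ± 0.17 at 100 ug/ml (adjusted p = 1.3e-09), a 5.57-fold change. It rose by 0.88 ± 0.17 with TiO2-NB at 10 ug/ml (adjusted p = 0.00828) and by 2.14 ± 0.17 at 100 ug/ml (adjusted p = 1.94e-08), a 4.41-fold change. Both calls at 10 ug/ml were lost on leaving out certain single arrays, with differences that stayed positive. The MWCNT call was lost without 1 h control replicate 2 (1.04, adjusted p = 0.0693), MWCNT 10 ug/ml replicate 2 (1.03, 0.0749) or replicate 3 (1.11, 0.0505), and in a fit of these groups alone (adjusted p = 0.322). The TiO2-NB call was lost without 1 h control replicate 2 (0.79, adjusted p = 0.0661) or TiO2-NB 10 ug/ml replicate 2 (0.83, 0.0517), and in a fit of these groups alone (adjusted p = 0.0922).

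Doses were also compared directly. EGR3 at 100 against 10 ug/ml differed by 1.34 ± 0.17 with MWCNT (adjusted p = 8.09e-05) and by 1.26 ± 0.17 with TiO2-NB (adjusted p = 0.000491). The order of the group means at 1 h was MWCNT 100, TiO2-NB 100, MWCNT 10, TiO2-NB 10 and control, and the 2 groups at 10 ug/ml were the neighbours that overlapped.

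EGR1, the best known member of its family and an early factor of wound and growth factor responses, gave no such pattern. Its brighter probe set, 201694_s_at, read 13.71, 13.75 and 13.52 in the 1 h controls, which put it at percentile 99.3 of the table in that group. Under MWCNT it read 13.74, 13.65 and 13.67 at 10 ug/ml and 13.66, 13.68 and 13.48 at 100 ug/ml. Under TiO2-NB it read 13.68, 13.63 and 13.55 at 10 ug/ml and 13.56, 13.64 and 13.73 at 100 ug/ml. The 5 groups overlapped throughout. The differences from control at 100 ug/ml were -0.05 with MWCNT (95% interval -0.22 to 0.12, adjusted p = 0.896) and -0.02 with TiO2-NB (-0.19 to 0.16, adjusted p = 0.98). The dimmer probe set, 201693_s_at, averaged 12.04 ± 0.19 with MWCNT at 100 ug/ml and 12.15 ± 0.28 with TiO2-NB at 100 ug/ml, against 12.07 ± 0.03 in the controls (SD, n = 3). Its differences from control were -0.04 with MWCNT (-0.27 to 0.20) and 0.08 with TiO2-NB (-0.16 to 0.31). With MWCNT at 10 ug/ml it read 12.33, 12.18 and 12.33, above all 3 controls, a difference of 0.21 ± 0.11 that did not pass (adjusted p = 0.52). The highest value of the whole table was 14.65, and whether the brighter probe set was near the limit of its range was not tested.

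NR4A1 (Nur77), a receptor known for T cell receptor and stress-induced transcription, was graded by dose on its brightest probe set, 202340_x_at. The 1 h controls read 8.70, 8.78 and 8.69. With MWCNT the values were 9.12, 9.13 and 9.02 at 10 ug/ml and 10.50, 10.37 and 10.41 at 100 ug/ml. With TiO2-NB they were 9.27, 9.23 and 9.14 at 10 ug/ml and 10.23, 10.49 and 10.14 at 100 ug/ml. All exposed arrays were above all controls, and the arrays of the 2 doses did not overlap for either particle. NR4A1 rose by 1.71 ± 0.10 with MWCNT at 100 ug/ml (adjusted p = 2.64e-11), a 3.26-fold change, and by 1.57 ± 0.10 with TiO2-NB at 100 ug/ml (adjusted p = 1.06e-10), a 2.96-fold change. At 10 ug/ml it rose by 0.49 ± 0.10 with TiO2-NB (adjusted p = 0.0075), a call lost without 1 h control replicate 1 (0.48, adjusted p = 0.0662) or TiO2-NB 10 ug/ml replicate 1 (0.46, 0.0519). With MWCNT at 10 ug/ml the difference was 0.37 ± 0.10 (95% interval 0.17 to 0.57), which did not pass (adjusted p = 0.248). At 100 against 10 ug/ml it differed by 1.34 ± 0.10 with MWCNT (adjusted p = 1.11e-08) and by 1.08 ± 0.10 with TiO2-NB (adjusted p = 3.4e-07).

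The other NR4A1 probe sets moved much less. Set 211143_x_at read 8.11, 7.74 and 7.81 with MWCNT at 100 ug/ml and 8.17, 8.14 and 7.99 with TiO2-NB at 100 ug/ml, against 7.50, 7.78 and 7.70 in the controls. TiO2-NB lay above the controls in all 3 arrays while MWCNT overlapped them. Neither difference passed: 0.23 ± 0.13 with MWCNT (-0.04 to 0.50, adjusted p = 0.539) and 0.44 ± 0.13 with TiO2-NB (0.17 to 0.71, adjusted p = 0.0746). The third, 210226_at, differed from control by -0.11 with MWCNT (-0.28 to 0.05) and -0.07 with TiO2-NB (-0.23 to 0.10). Over the 10 group means, 202340_x_at and 211143_x_at correlated at 0.969 and 202340_x_at and 210226_at at 0.0444 (Pearson, all from the same 30 arrays).

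NR4A3 (NOR1), a close relative of NR4A1, had a response at 100 ug/ml and none that passed at 10 ug/ml. Set 209959_at read 7.41, 7.41 and 7.37 in the 1 h controls. With MWCNT it read 7.30, 7.53 and 7.41 at 10 ug/ml and 8.37, 8.49 and 8.80 at 100 ug/ml. With TiO2-NB it read 7.49, 7.25 and 7.25 at 10 ug/ml and 8.32, 7.86 and 8.23 at 100 ug/ml. The 10 ug/ml arrays straddled the controls and the 100 ug/ml arrays were all above them. NR4A3 rose by 1.15 ± 0.15 with MWCNT (adjusted p = 3.73e-05), a 2.22-fold change, and by 0.74 ± 0.15 with TiO2-NB (adjusted p = 0.00538), a 1.67-fold change. At 100 against 10 ug/ml it differed by 1.14 ± 0.15 with MWCNT (adjusted p = 0.000109) and by 0.81 ± 0.15 with TiO2-NB (adjusted p = 0.0133). The TiO2-NB dose call was lost without TiO2-NB 10 ug/ml replicate 2 (0.77, adjusted p = 0.105) or 3 (0.77, 0.0967), without TiO2-NB 100 ug/ml replicate 1 (0.72, 0.128) or 3 (0.76, 0.0924), and in a fit of these groups alone (adjusted p = 0.136).

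The second NR4A3 set, 207978_s_at, read 6.51, 6.61 and 6.82 with MWCNT at 100 ug/ml and 6.22, 6.23 and 6.23 with TiO2-NB at 100 ug/ml, against 5.98, 5.93 and 5.79 in the controls. Both groups were above the controls in every array. It rose by 0.75 ± 0.10 with MWCNT (adjusted p = 2.36e-05), and its difference of 0.33 ± 0.10 with TiO2-NB (0.13 to 0.53) did not pass (adjusted p = 0.0744). The 2 sets correlated at 0.996 over the 10 group means. The third set, 216979_at, lies at percentile 14.8 of the table and showed a difference of 0.11 with MWCNT (adjusted p = 0.749) and 0.00 with TiO2-NB (adjusted p = 0.998).

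NR4A2 (Nurr1), known for dopaminergic neuron development and as an early inducible factor in other cells, did not pass the test on any of its 3 probe sets at 1 h. Set 204622_x_at read 6.49, 6.61 and 6.75 with MWCNT at 100 ug/ml and 6.44, 6.60 and 6.77 with TiO2-NB at 100 ug/ml, against 6.64, 6.71 and 6.37 in the controls. The 3 groups overlapped. The differences were 0.04 (-0.21 to 0.29) with MWCNT and 0.03 (-0.22 to 0.28) with TiO2-NB. For 204621_s_at they were -0.04 (-0.32 to 0.24) with MWCNT and 0.13 (-0.15 to 0.41) with TiO2-NB, and for 216248_s_at -0.10 (-0.41 to 0.22) with MWCNT and 0.01 (-0.31 to 0.32) with TiO2-NB. Over the 10 group means its 3 sets correlated with each other at 0.985 to 0.996. At TiO2-NB 10 ug/ml the lowest difference was -0.30 (-0.62 to 0.02) on 216248_s_at.

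Counted over probe sets, 4 of the 12 rose with MWCNT at 100 ug/ml (EGR3, NR4A1 and 2 of NR4A3), where 1.17% of all probe sets rose. With TiO2-NB at 100 ug/ml 3 rose (EGR3, NR4A1 and 1 of NR4A3), where 2.34% of all rose. At 10 ug/ml 1 rose with MWCNT (EGR3) against 0.027% of all probe sets, and 2 rose with TiO2-NB (EGR3 and NR4A1) against 1.25%. At 100 against 10 ug/ml 4 were higher with MWCNT, against 0.432% of all probe sets, and 3 with TiO2-NB, against 0.216%. The median difference of the 12 was 0.08 with MWCNT at 100 ug/ml and 0.10 with TiO2-NB at 100 ug/ml, against -0.02 with MWCNT and -0.03 with TiO2-NB over all probe sets. The exposures share their controls.

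**Figure D3:**
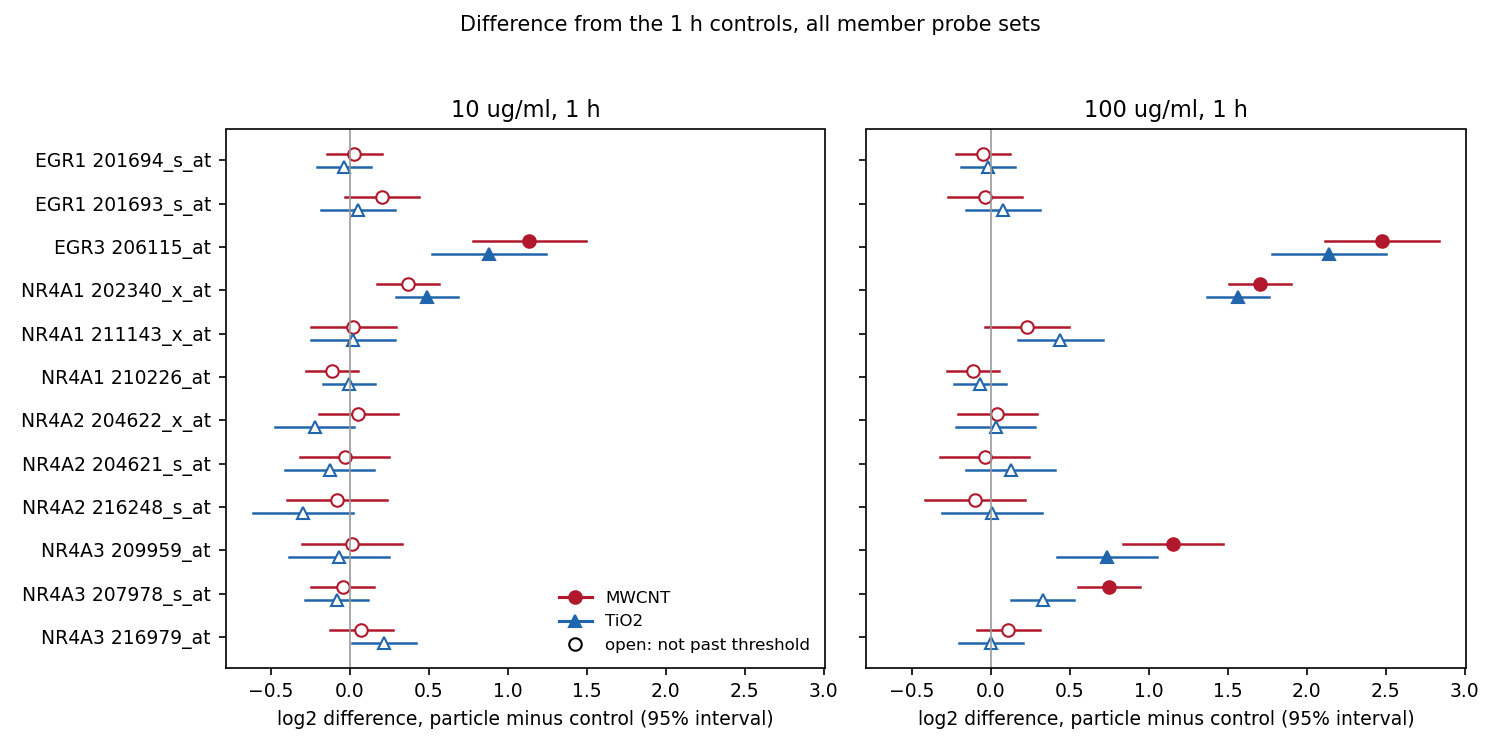
Difference from the 1 h control on the log2 scale for each probe set (rows) at 10 ug/ml and 100 ug/ml (panels), with a colour per particle, bars for the 95% interval and filled points for probe sets past the threshold in limma. The bars of EGR3 and the brightest NR4A1 probe set at 100 ug/ml lie right of 1, and those of EGR1 and NR4A2 at 100 ug/ml cross 0.

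Ratios within each array set members against each other. Over the 6 arrays at 100 ug/ml of either particle, EGR3 minus EGR1 was -2.42 ± 0.27, against -4.76 ± 0.35 in the 3 controls (SD). NR4A1 minus NR4A2 was 3.75 ± 0.22 in the exposed arrays, against 2.15 ± 0.14 in the controls. NR4A3 minus NR4A2 was 1.74 ± 0.30 in the exposed arrays, against 0.83 ± 0.15 in the controls. No exposed array overlapped a control in any of the 3. The gaps were 2.34, 1.60 and 0.91, and each had an exact two-sided permutation p of 0.0119 (adjusted 0.0119 over the 3), the smallest that 6 arrays against 3 allow. The comparison and its pairs were chosen after the values were seen. Each pair sets a member that rose against one that did not, so the separation was given by the choice. These p values therefore add no evidence, and the adjustment does not cover the choice. With 1 particle alone, 3 against 3 cannot go below 0.1, and 0.1 was found for each. The gaps rest on log2 differences of different probe sets, so only their change with exposure carries meaning.

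The particles were compared at each dose and time. At 1 h none of the 12 probe sets passed for MWCNT against TiO2-NB, at 100 ug/ml (0.018% of all probe sets did) or at 10 ug/ml (0.009%). In limma 2 at 100 ug/ml and 1 at 10 ug/ml had an unadjusted p under 0.05, against 1394 and 2186 of all 22215. At 100 ug/ml 3 of the 12 did not overlap, EGR3 and both responding NR4A3 sets, with all MWCNT arrays above all TiO2-NB arrays. At 10 ug/ml 2 of the 12 did not overlap, in the other direction. NR4A1 202340_x_at and the dim NR4A3 set 216979_at had all TiO2-NB arrays above all MWCNT arrays. How many of all probe sets separate in this way was not counted, and an exact test of 3 against 3 cannot go below 0.1. At 100 ug/ml the differences were 0.34 (-0.02 to 0.70, adjusted p = 0.815) for EGR3, 0.42 (0.10 to 0.73, adjusted p = 0.674) for NR4A3 209959_at and 0.42 (0.22 to 0.62, adjusted p = 0.235) for 207978_s_at. For NR4A1 202340_x_at the 100 ug/ml groups overlapped and the difference was 0.14 (-0.06 to 0.34, adjusted p = 0.882). A difference of 0.73 for 209959_at remains inside its interval, so these values do not show that the particles act alike.

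At 24 h the counts were 0 of 12 for both doses of MWCNT and of TiO2-NB against the 24 h control in limma. Of all probe sets, 0% were called for MWCNT at 10 and at 100 ug/ml, 4.71% for TiO2-NB 10 ug/ml and 10.4% for TiO2-NB 100 ug/ml. At an unadjusted p under 0.05 in limma there were 0 for each MWCNT dose, 1 for TiO2-NB 10 ug/ml and 2 for TiO2-NB 100 ug/ml. Of all 22215 probe sets, 807 and 1341 had one with MWCNT at 10 and 100 ug/ml, and 5398 and 6242 with TiO2-NB. With array weights limma called 1 at TiO2-NB 10 ug/ml (NR4A3 216979_at) and 4 at TiO2-NB 100 ug/ml. The 4 were EGR1 201694_s_at, NR4A1 202340_x_at and the NR4A3 sets 209959_at and 216979_at. Set 216979_at lies at percentile 14.8 of the table and correlated with 209959_at at 0.483 over the 10 group means. In the weighted fit the 24 h controls had weights of 0.29, 0.42 and 5.30 (replicates 1, 2 and 3), so replicate 3 counted most. The share of all probe sets called with these weights was not counted. EGR3, the strongest responder at 1 h by size, read 3.94, 4.02 and 4.04 with MWCNT at 100 ug/ml and 4.18, 4.51 and 4.12 with TiO2-NB at 100 ug/ml, against 4.08, 3.70 and 4.17 in the 24 h controls. All arrays lay in the low part of the table (percentile 10.3 in the 24 h controls). EGR1 201694_s_at read 10.12, 10.30 and 10.27 with MWCNT at 100 ug/ml and 10.46, 10.45 and 10.58 with TiO2-NB at 100 ug/ml, against 10.40, 10.31 and 10.14 in the 24 h controls. NR4A1 202340_x_at read 7.38, 7.32 and 7.07 with MWCNT at 100 ug/ml and 7.60, 7.62 and 7.60 with TiO2-NB at 100 ug/ml, against 7.30, 7.48 and 7.39 in the controls. TiO2-NB at 100 ug/ml was above all 3 controls for both of these sets, by 0.21 ± 0.08 for EGR1 (0.04 to 0.38, adjusted p = 0.105) and 0.22 ± 0.10 for NR4A1 (0.02 to 0.42, adjusted p = 0.138). They were the 2 of 12 without overlap in that comparison. With TiO2-NB at 10 ug/ml 3 of 12 did not overlap the controls. EGR1 201693_s_at lay below them, and NR4A1 202340_x_at and NR4A3 207978_s_at above. With MWCNT the counts were 0 at 10 ug/ml and 1 at 100 ug/ml. The share of all probe sets without overlap was not counted, so these counts say nothing particular about the members.

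MWCNT against TiO2-NB at 100 ug/ml and 24 h was the exception: 2 of the 12 were lower, where 3.58% of all probe sets were lower. EGR1 201694_s_at differed by -0.27 ± 0.08 (adjusted p = 0.0467) and NR4A1 202340_x_at by -0.35 ± 0.10 (adjusted p = 0.0247). The other EGR1 set differed by -0.20 (adjusted p = 0.264). For EGR1 the call was lost when any 1 of the 6 arrays was left out. The values were -0.21 (adjusted p = 0.179), -0.30 (0.0677) and -0.29 (0.0895) without MWCNT replicates 1, 2 and 3, and -0.29 (0.0821), -0.29 (0.071) and -0.23 (0.162) without TiO2-NB replicates 1, 2 and 3. It was also lost in a fit of these groups alone (adjusted p = 0.0522). For NR4A1 it was lost without MWCNT replicate 3 (-0.25, adjusted p = 0.148), and without TiO2-NB replicate 1 (-0.35, 0.0636), 2 (-0.34, 0.0641) or 3 (-0.35, 0.0607). Mean levels of the cell type markers, set side by side without a test, also differed between the same arrays. The mean of the 3 measured immune markers was 5.63 (5.52 to 5.69) with MWCNT and 5.97 (5.89 to 6.09) with TiO2-NB, against 5.80 (5.77 to 5.83) in the 24 h controls, with PTPRC at percentile 6.06 of the table. The mean of the 5 fibroblast markers was 6.26 with MWCNT and 6.44 with TiO2-NB, against 6.28 in the controls, and that of the 7 epithelial markers 7.93 with MWCNT and 7.75 with TiO2-NB, against 8.05 in the controls. That of the 3 airway secretory and alveolar markers was 6.39 with MWCNT and 6.54 with TiO2-NB, against 6.41 in the controls. That of the 4 endothelial markers was 5.21 with MWCNT and 5.28 with TiO2-NB, against 5.21 in the controls. The part of these markers in the EGR1 and NR4A1 differences was not tested. At 10 ug/ml 0 of 12 passed in limma (3.75% of all probe sets did). At an unadjusted p under 0.05 there was 1 of 12, against 4961 of all 22215 probe sets. NR4A1 202340_x_at there differed by -0.31 ± 0.10 (adjusted p = 0.0678), and by -0.41 (adjusted p = 0.0228) without MWCNT 10 ug/ml replicate 2. At 24 h no dose comparison called a member: 0 of 12 at MWCNT (0% of all) and 0 of 12 at TiO2-NB (0.729% of all).

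The members also differed between the times in unexposed cells. In the 24 h controls 10 of 12 probe sets were below the 1 h controls and passed the test, where 11.6% of all probe sets fell. EGR1 and EGR3 had larger differences than any set of NR4A1, NR4A2 or NR4A3. EGR3 read 4.08, 3.70 and 4.17 at 24 h, against 9.35, 8.72 and 8.63 at 1 h. The difference was -4.92 ± 0.17 (adjusted p = 5.08e-17), with the 1 h level 30.2-fold higher. EGR1 201694_s_at read 10.40, 10.31 and 10.14 at 24 h, against 13.71, 13.75 and 13.52 at 1 h. It fell by 3.37 ± 0.08 (adjusted p = 4e-20), with the 1 h level 10.4-fold higher. The second EGR1 set averaged 7.94 ± 0.19 at 24 h and 12.07 ± 0.03 at 1 h (SD, n = 3), a difference of -4.13 ± 0.11 (adjusted p = 2.61e-19).

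NR4A2 fell by 1.50 ± 0.12 on 204622_x_at (adjusted p = 9.27e-10), with differences of -1.15 ± 0.14 on 204621_s_at (5.44e-07) and -1.58 ± 0.15 on 216248_s_at (2.19e-08). NR4A3 fell by 1.57 ± 0.15 on 209959_at (adjusted p = 2.49e-08), with a difference of -0.97 ± 0.10 on 207978_s_at (3.2e-08). NR4A1 fell by 1.33 ± 0.10 on 202340_x_at (adjusted p = 8.39e-11), with a difference of -0.62 ± 0.13 on 211143_x_at (0.000729). The 2 that did not pass were NR4A1 210226_at, at -0.10 (adjusted p = 0.381), and NR4A3 216979_at, at -0.09 (0.516), both also without a call against control at 1 h. The 3' over 5' log2 gap of the ACTB control probe sets, a sign of RNA quality, was also higher at 24 h, at 0.44 to 0.86 against 0.27 to 0.42 at 1 h, and that of GAPDH was 0.03 to 0.11 against 0.06 to 0.09. Its part in these differences was not tested.

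**Figure D4:**
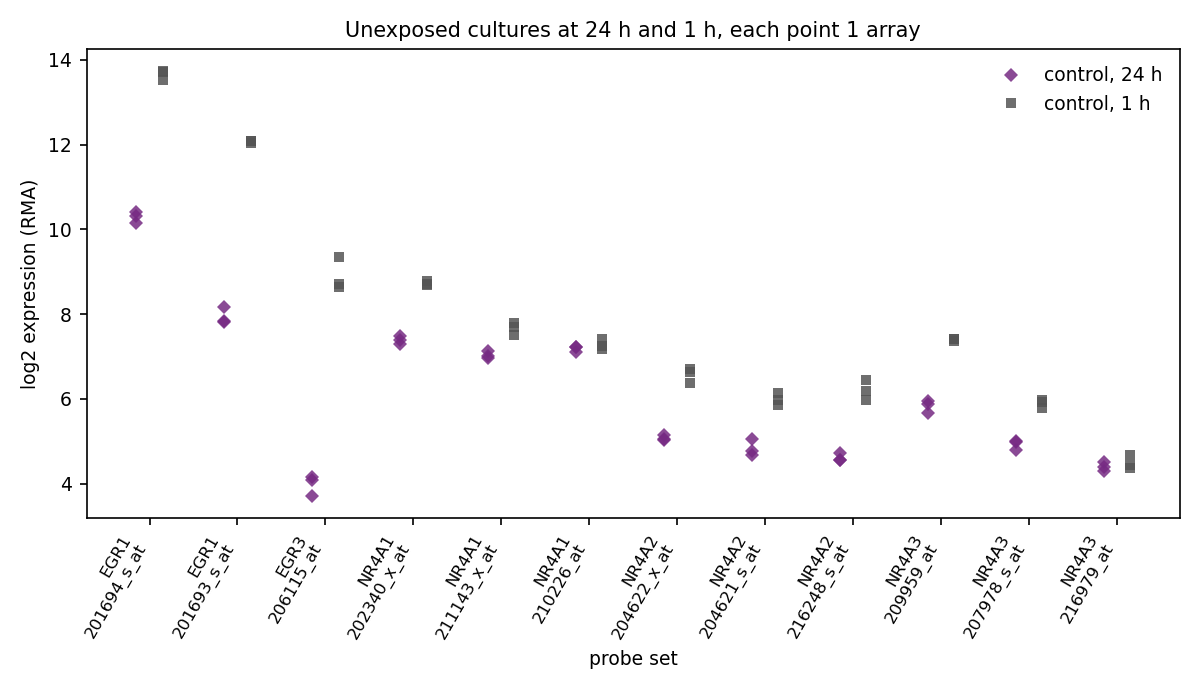
Log2 expression of each control array at 24 h and at 1 h (points), for all 12 probe sets. The 24 h points lie below the 1 h points without overlap for the 10 probe sets that fell, with mean differences of -4.92 for EGR3 and -0.62 for NR4A1 211143_x_at.

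Whether the response to a particle differs between the times was tested as the effect at 24 h minus the effect at 1 h. With MWCNT at 100 ug/ml 4 of 12 were lower (0.396% of all probe sets were), with TiO2-NB at 100 ug/ml 2 were lower (0.779%), and with 10 ug/ml 0 passed for MWCNT (0% of all) and 0 for TiO2-NB (0.0225%). In limma at an unadjusted p under 0.05 there were 2 for MWCNT and 1 for TiO2-NB at 10 ug/ml, against 1145 and 2832 of all 22215 probe sets. With array weights TiO2-NB at 10 ug/ml gave 1 call (EGR3). EGR3 gave -2.46 with MWCNT (adjusted p = 2.79e-06) and -1.85 with TiO2-NB (adjusted p = 0.000114). NR4A1 202340_x_at gave -1.84 with MWCNT (adjusted p = 2.08e-08) and -1.35 with TiO2-NB (adjusted p = 1.93e-06). NR4A3 gave -1.07 on 209959_at (adjusted p = 0.016) and -0.85 on 207978_s_at (adjusted p = 0.00114) with MWCNT. The NR4A3 209959_at call was lost without MWCNT 100 ug/ml 1 h replicate 3 (-0.95, adjusted p = 0.0731), 24 h control replicate 2 (-1.01, 0.0543) or MWCNT 100 ug/ml 24 h replicate 2 (-0.94, 0.068). The 207978_s_at call was lost in a fit of the compared groups alone (adjusted p = 0.05, not under the threshold). In the 24 h controls EGR3 and NR4A3 209959_at lay at percentiles 10.3 and 31.7 of the table.

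**Figure D5:**
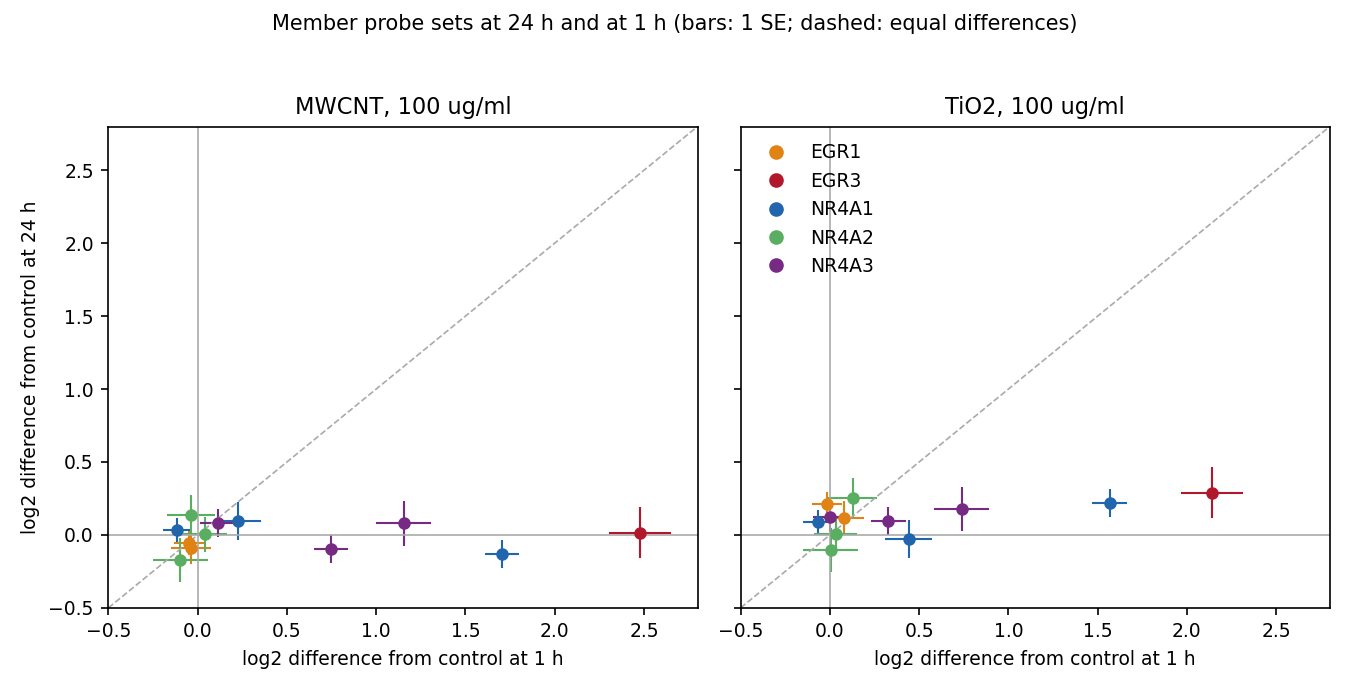
Log2 difference from control at 24 h (vertical) against that at 1 h (horizontal) for the 12 probe sets at 100 ug/ml, with a panel per particle, bars of 1 SE and a dashed line of equal differences. EGR3 lies far right of the line, at 0.01 at 24 h and 2.48 at 1 h with MWCNT, and at 0.29 at 24 h and 2.14 at 1 h with TiO2-NB.

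Other genes of the pathway were counted from lists fixed by name, each gene by its probe set with the highest mean. Of the 3 measured EGR relatives and corepressors, EGR4 rose at 100 ug/ml with both particles, by 0.52 ± 0.11 with MWCNT (adjusted p = 0.00906) and 0.47 ± 0.11 with TiO2-NB (0.0129), while its other set gave 1.69 with MWCNT and 1.37 with TiO2-NB. The EGR4 call was lost without MWCNT 100 ug/ml replicate 1 (0.47, adjusted p = 0.0542) for MWCNT, and without TiO2-NB 100 ug/ml replicate 1 (0.42, 0.0724) or 1 h control replicate 1 (0.47, 0.0545) or 3 (0.44, 0.0537) for TiO2-NB. The corepressors NAB1 and NAB2 did not pass at 1 h. Of the upstream factors, 1 of 13 rose with each particle at 100 ug/ml, SRF, by 0.86 ± 0.06 with MWCNT (adjusted p = 2.58e-09) and 0.68 ± 0.06 with TiO2-NB (1.72e-07), while its other set gave 0.195 with MWCNT and 0.22 with TiO2-NB. With TiO2-NB at 10 ug/ml SRF rose by 0.28 (adjusted p = 0.0205), a call lost without TiO2-NB 10 ug/ml replicate 1 (0.29, adjusted p = 0.0617), 2 (0.28, 0.0738) or 3 (0.26, 0.133), without 1 h control replicate 1 (0.23, 0.187) or 2 (0.27, 0.108) and in a fit of these groups alone (0.176). The list medians were 0.06 with MWCNT and -0.00267 with TiO2-NB at 100 ug/ml.

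AP-1 subunits, the Fos and Jun partners of the early response, rose in 3 of 9 cases with MWCNT at 100 ug/ml and 4 of 9 with TiO2-NB at 100 ug/ml, with list medians of 0.195 and 0.403 against -0.02 and -0.03 over all probe sets. FOSB averaged 10.39 ± 0.16 with MWCNT and 10.42 ± 0.15 with TiO2-NB, against 9.15 ± 0.15 in controls (SD, n = 3), a rise of 1.24 and 1.27. ATF3, a stress-induced member of the ATF family, rose by 0.70 ± 0.11 with MWCNT and 0.86 ± 0.11 with TiO2-NB. FOSL2 rose by 0.41 with MWCNT (adjusted p = 0.0431) and 0.40 with TiO2-NB (0.03), and FOSL1 rose by 0.43 with TiO2-NB (0.0235). These 3 calls were each lost on leaving out single arrays. For FOSL2 with MWCNT the values were 0.39 (adjusted p = 0.121) and 0.35 (0.245) without MWCNT 100 ug/ml replicates 1 and 3, and 0.46 (0.0618) and 0.32 (0.293) without 1 h control replicates 1 and 2. For FOSL2 with TiO2-NB they were 0.38 (0.108) and 0.33 (0.13) without TiO2-NB 100 ug/ml replicates 1 and 2, and 0.31 (0.227) without control replicate 2. For FOSL1 they were 0.38 (0.0847) and 0.45 (0.0679) without TiO2-NB 100 ug/ml replicates 2 and 3, and 0.37 (0.147) and 0.39 (0.129) without control replicates 1 and 2. In fits of the compared groups alone the adjusted p was 0.171 and 0.222 for FOSL2 with MWCNT and with TiO2-NB and 0.0913 for FOSL1. FOS itself did not pass at 1 h, with differences of 0.16 with MWCNT (adjusted p = 0.679) and 0.11 with TiO2-NB (0.807).

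At 100 ug/ml and 1 h, ERK feedback and early induced genes rose in 1 of 10 cases with MWCNT (DUSP5, an ERK phosphatase, by 0.56) and 2 of 10 with TiO2-NB (IER3, by 0.39, and DUSP5, by 0.35). The DUSP5 call with TiO2-NB was lost without TiO2-NB 100 ug/ml replicate 3 (0.35, adjusted p = 0.0575) or 1 h control replicate 2 (0.30, 0.108) and in a fit of these groups alone (0.0926). Of the EGF receptor and its ligands, 1 of 5 rose with each particle. EREG, a ligand, rose by 0.77 ± 0.15 with MWCNT (adjusted p = 0.00591), a call lost without MWCNT 100 ug/ml replicate 3 (0.70, 0.0537) or 1 h control replicate 2 (0.57, 0.0786) and in a fit of these groups alone (0.114). EGFR rose by 1.29 with TiO2-NB (adjusted p = 0.0235) on 1 set, while its 5 other sets gave -0.04 to 0.00. The EGFR call was lost without TiO2-NB 100 ug/ml replicate 2 (1.31, adjusted p = 0.0512) or 3 (1.21, 0.12), and without 1 h control replicate 1 (1.14, 0.146) or 2 (1.27, 0.0895).

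Among 9 measured genes described as EGR1 targets, F3 (tissue factor) rose by 0.88 ± 0.12 with MWCNT at 100 ug/ml (adjusted p = 2.97e-05) and by 0.78 ± 0.12 with TiO2-NB at 100 ug/ml (0.000159). ICAM1, an adhesion molecule, rose by 0.25 with TiO2-NB (adjusted p = 0.0134), a call lost without TiO2-NB 100 ug/ml replicate 2 (0.18, 0.0884) or 1 h control replicate 1 (0.20, 0.129) and in a fit of these groups alone (0.454). The list medians were -0.04 with MWCNT and -0.08 with TiO2-NB. Among 9 genes of the NR4A list, CITED2, a transcriptional coregulator, rose by 1.05 ± 0.12 with MWCNT (adjusted p = 2.37e-06) and 0.81 ± 0.12 with TiO2-NB (0.000118). The 3 RXR partners did not pass with either particle. At 10 ug/ml and 1 h no list gene passed besides SRF.

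At 24 h no list gene was called with MWCNT at 100 ug/ml, where limma called none of the 22215 probe sets (1341 had an unadjusted p under 0.05), and TiO2-NB at 100 ug/ml called 7 of 10 ERK feedback genes, all higher. IER3, an early gene of cell survival, rose by 1.11 ± 0.08 (adjusted p = 1.22e-08), DUSP6 by 0.71 and SPRED2 by 0.63, though 2 other SPRED2 sets gave -0.09 and -0.01. Of the 7, IER3, DUSP1, DUSP6 and SPRED2 passed whichever array was left out. DUSP4 was lost without 24 h control replicate 1 or TiO2-NB replicate 1, SPRY2 without control replicate 2 or 3 or TiO2-NB replicate 1 or 2, and SPRY4 without TiO2-NB replicate 2, with adjusted p of 0.0503 to 0.121. In a fit of these groups alone IER3 was the 1 of the 7 that passed. AP-1 members JUN, FOS and MAFF rose by 0.56, 0.48 and 0.36 while the EGR and NR4A members did not pass. The FOS call was lost without TiO2-NB 100 ug/ml replicate 1 (0.42, adjusted p = 0.0528), and the MAFF call without TiO2-NB replicate 1 (0.34, 0.0526) or 2 (0.32, 0.0598) or 24 h control replicate 2 (0.25, 0.0829) or 3 (0.29, 0.0614). Of the 13 upstream factors 2 rose and 2 fell. ELK3, a ternary complex factor, rose by 0.45 (adjusted p = 0.00949) and MEF2A by 0.25 (0.0384), while SRF fell by 0.29 (0.00647) and MRTFB, an SRF coactivator, by 0.21 (0.0182). The MEF2A call was lost without TiO2-NB 100 ug/ml replicate 2 (0.22, adjusted p = 0.116) or 3 (0.22, 0.142) or 24 h control replicate 2 (0.19, 0.151) or 3 (0.22, 0.0974). The MRTFB call was lost without TiO2-NB 100 ug/ml replicate 1 (-0.17, 0.0863) or 24 h control replicate 1 (-0.15, 0.106) and with cyclic loess (-0.15, 0.109). Of the EGR1 targets CDKN1A, a cell cycle inhibitor, rose by 0.18 (adjusted p = 0.0494), a call lost without any 1 of the TiO2-NB arrays (0.15 to 0.22, 0.0515 to 0.184) or without 24 h control replicate 1 (0.17, 0.126) or 3 (0.16, 0.124). In a fit of these groups alone ELK3 (0.105), MEF2A (0.218), MRTFB (0.207), CDKN1A (0.205), JUN (adjusted p = 0.152), FOS (0.105), MAFF (0.229) and SRF (0.13) did not pass.

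With TiO2-NB at 10 ug/ml and 24 h 1 list gene was called, FOSB, which averaged 6.37 ± 0.05 with TiO2-NB and 5.76 ± 0.32 in the 24 h controls (SD, n = 3), a rise of 0.61 (adjusted p = 0.0254). The FOSB call was lost without TiO2-NB 10 ug/ml replicate 1 (0.63, 0.0537) or 3 (0.58, 0.0872), without 24 h control replicate 1 (0.45, 0.137) and in a fit of these groups alone (0.182). In the controls at 24 h against 1 h, 9 of 9 AP-1 subunits fell (median -2.82) and 10 of 10 ERK feedback genes fell (median -2.27), against a median of -0.02 over all probe sets. The differences were -3.33 for FOS, -5.29 for DUSP5, -4.70 for DUSP6 and -1.74 for NAB2. Of the NR4A list 1 of 9 was higher, ENO3 by 0.20, and 2 lower. In a fit of the controls alone ENO3 (adjusted p = 0.102) and UCP3, 1 of the lower (-0.30, 0.0574), did not pass. The ENO3 call was also lost in limma with array weights (adjusted p = 0.0835) and with a trended prior (0.067). Of the 3 RXR genes 1 was higher, RXRB by 0.28 (adjusted p = 0.0612 in a fit of the controls alone). The lists were chosen with earlier results of these data known.

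Genes whose level followed that of a member most closely were sought by Pearson correlation over the 10 group means. These means share the arrays and the large step between times. The search covered 9936 probe sets of other genes, each with 1 symbol and a mean above the median of all non-control probe sets. Dimmer probe sets were not searched. Closest to EGR1 were IER2 and SIK1 (0.999) and FOS (0.998), and 102 probe sets exceeded 0.99. Closest to EGR3 were DKK1 and AMOTL2 (0.997) and FOSB (0.996), of 32 over 0.99. Closest to NR4A2 were DUSP1, DUSP5 and PHLDA2 (0.995), of 60. Fewer were as close to NR4A1 and NR4A3: EPPK1 and FHL2 (0.992) and THBS1 (0.991) for NR4A1, and 2 sets of CITED2 (0.993 and 0.99) and CNN2 (0.992) for NR4A3, of 3 over 0.99 for each. Over the 5 groups at 1 h, chosen after the values were seen, TPM1 and CITED2 (0.999) were closest to NR4A1, of 20 over 0.99. FEM1B reached the same 0.999 with EGR1, though neither passed against control at 100 ug/ml. A correlation this high over 5 means therefore does not mark a shared response. TPM1 rose by 0.99 with MWCNT and by 0.92 with TiO2-NB at 100 ug/ml. Over these 5 groups no set exceeded 0.99 for NR4A2, and EGR1's 2 probe sets correlated at 0.772, against 0.999 over the 10 groups.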

How the data were processed

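RNA of 30 cultures was hybridised to Affymetrix arrays. The deposited table gives 1 log2 expression value for each probe set and array, made by the authors with RMA, per the submitters' processing notes; the version and the genome build are not given in the sources used here. RMA subtracts background, forces the arrays onto a common distribution and combines probes into sets, so a shift of all genes together is removed. No further normalisation was applied here. The number of arrays limits the precision.

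A mean per group was fitted over 22215 probe sets in limma 3.58.1 (R 4.3.3, statmod 1.5.0), leaving out 62 array controls, with 20 residual degrees of freedom and 21 comparisons. P values were adjusted by Benjamini-Hochberg within a comparison, at 0.05. For 3 arrays against 3 an exact test cannot go below 0.1. Symbols came from the platform annotation, where 19064 probe sets have 1 symbol, 1043 several and 2108 none. List genes named are up to 4 called per direction by size. The script was tested on simulated data. The alternatives were 1 probe set per gene, a filter on dim probe sets, cyclic loess, array weights, a prior variance with trend, only the compared groups, a replicate block and leaving out each array. The members and lists were chosen with earlier results of these data known. Promoter sequences are RefSeq's; those of EGR3 and NR4A2 are not used here. Figures were drawn with matplotlib 3.10.9.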

Additional observations from a re-analysis of the deposited data

Results flagged for a closer look

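A response that differed between the times was found for 6 values, all as the effect at 24 h minus the effect at 1 h at 100 ug/ml, by limma's interaction contrast. EGR3 206115_at gave -2.46 with MWCNT (adjusted p = 2.79e-06) and -1.85 with TiO2-NB (adjusted p = 0.000114). NR4A1 202340_x_at gave -1.84 with MWCNT (adjusted p = 2.08e-08) and -1.35 with TiO2-NB (adjusted p = 1.93e-06). NR4A3 gave -1.07 on 209959_at (adjusted p = 0.016) and -0.85 on 207978_s_at (adjusted p = 0.00114), both with MWCNT. For 209959_at the call was lost on leaving out MWCNT 100 ug/ml 1 h replicate 3 (-0.95, adjusted p = 0.0731), 24 h control replicate 2 (-1.01, 0.0543) or MWCNT 100 ug/ml 24 h replicate 2 (-0.94, 0.068). The 207978_s_at call was lost in a fit of the compared groups alone (adjusted p = 0.05, not under the threshold).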

How the results depend on the processing

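No called difference of a member changed sign under any alternative run. With a replicate block, which the data do not call for (same-numbered arrays of different groups deviated with a median correlation of 0.0144 over 135 pairs, different-numbered ones with -0.00352 over 270), the counts of called members were 4 with MWCNT at 100 ug/ml and 3 with TiO2-NB at 100 ug/ml at 1 h, and 10 for the controls over time, the same as without it, and no other count of members changed. Among list genes the block ended the calls of FOSL2 with MWCNT 100 at 1 h (adjusted p = 0.0534), CDKN1A with TiO2-NB 100 at 24 h (0.0593) and ENO3 in the controls over time (0.0523). With 1 probe set per gene, 5 of 5 members fell over time in the controls. With a filter on dim probe sets, which kept 5 of the 12, the counts at 1 h were 0 for MWCNT 10, 1 for MWCNT 100 and 1 for TiO2-NB 10, 1 for the dose comparison of each particle, 4 for the controls over time and 1 for each interaction at 100 ug/ml, since 7 members were left out. With array weights, 1 member was called for TiO2-NB 10 at 24 h, the dim NR4A3 set 216979_at. For TiO2-NB 100 at 24 h 4 were called (EGR1 201694_s_at, NR4A1 202340_x_at, NR4A3 209959_at and 216979_at). The share of all probe sets called with array weights was not counted. The TiO2-NB dose comparison at 1 h gave 4 (NR4A3 207978_s_at was added, 0.42, adjusted p = 0.0381) and the TiO2-NB 10 interaction 1 (EGR3). The 24 h control arrays had weights of 0.29, 0.42 and 5.30. The part of these weights in the calls was not tested. In fits restricted to the groups compared, which leaves fewer arrays to estimate the spread, 0 members were called for MWCNT 10 at 1 h, 1 for TiO2-NB 10 at 1 h, 1 for MWCNT against TiO2-NB at 100 ug/ml and 24 h, 2 for the TiO2-NB dose comparison at 1 h and 3 for the MWCNT interaction at 100 ug/ml (without NR4A3 207978_s_at, -0.85, adjusted p = 0.05). NR4A1 211143_x_at with TiO2-NB at 100 ug/ml passed with cyclic loess (0.47, adjusted p = 0.037), with the dim filter (0.0423) and with a trended prior (0.0471). Leaving out 1 array gave 0 to 1 calls for MWCNT 10 at 1 h, 1 to 2 for TiO2-NB 10 at 1 h, 0 to 1 for MWCNT against TiO2-NB at 100 ug/ml and 24 h, 0 to 1 for the same at 10 ug/ml and 24 h, 2 to 3 for the TiO2-NB dose comparison at 1 h and 3 to 4 for the MWCNT interaction at 100 ug/ml. The calls at 100 ug/ml and 1 h stayed at 4 and 3. The exact tests of within-array gaps, whose pairs were chosen after the values were seen, gave p of 0.0179 to 0.0357 on leaving out an array.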
